A study of Homo sapiens with 2 samples.

Results

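The Notch pathway and its HES and HEY repressors were followed on 2 single-color Agilent whole-genome arrays of Y79 cells, an established human retinoblastoma line that grows in suspension. The genes were the receptor NOTCH1, the ligands DLL1, DLL3 and JAG1, and the repressors HES1, HES5, HES6, HEY1 and HEYL. They were chosen by gene symbol after the ratios of these arrays had been seen, so that the values below are a description. The 9 genes, of 30967 gene symbols on the arrays, were read by 14 probes, each 60 bases long, out of 40976 transcript probes, and these 14 probes occupied 23 spots.

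One array held siRNA-untreated cells and the other held cells taken 48 h after siRNA against Ep-CAM (TACSTD1, a cell adhesion molecule of epithelia). Per the study's methods, both cultures had been exposed to azacytidine (AZC), an inhibitor of DNA methylation that was used to restore Ep-CAM, whereas the labels give the siRNA treatment alone. The untreated cells received no siRNA, so that the effect of transfection and that of losing Ep-CAM cannot be told apart. With 1 array per condition there was no replicate, no test between conditions could be made and no p-value is given.

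Notch signaling passes between neighboring cells. A ligand of the Delta or Jagged family binds a Notch receptor, the receptor is cut by ADAM proteases and gamma-secretase, and its freed intracellular domain joins RBPJ on DNA and turns on HES and HEY genes. These encode basic helix-loop-helix repressors that hold back proneural factors, and in the developing retina they keep progenitors from becoming neurons. HES6 differs from its relatives, since it opposes HES1 and promotes neuronal differentiation.

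The HES1, DLL3, HES5 and HEYL probe sequences are shown first, because HES1 and DLL3 each had measured probes with unlike values and the HES5 and HEYL probes hold the letters of the poly(A) signal. Sequences are as in the array files, 5′ to 3′, with hg17 coordinates of the whole probe, and capitals mark AATAAA, the letters of the poly(A) signal. These letters stood in 3 of the 14 probes and in 4.16% of all probes.
HES1 A_24_P938293, chr3:195336746-195336805, plus strand, bases 1 to 30: accctcagcacttgctcagtagttttgtga
HES1 A_23_P6596, chr3:195336978-195337165, plus strand, bases 1 to 60: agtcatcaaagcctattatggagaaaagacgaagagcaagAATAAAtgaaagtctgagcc
HES1 A_23_P17998, chr3:195338878-195338937, plus strand, bases 1 to 30: gagagagctgtattaagtgactgaccatgc
DLL3 A_24_P57047, chr19:44690317-44690376, plus strand, bases 1 to 60: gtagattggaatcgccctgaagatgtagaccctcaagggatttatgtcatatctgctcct
DLL3 A_23_P16438, chr19:44690472-44690531, plus strand, bases 1 to 30: ctcgattctgtccgtgaaatgaattgggta
HES5 A_32_P234184, chr1:2492352-2492411, minus strand, bases 28 to 57: cgaagccgccatAATAAAatctgattgttc
HEYL A_23_P430658, chr1:39758934-39758993, minus strand, bases 31 to 60: ggttgttgcggacatccAATAAAgattttt
All HES1 probes carry the same transcript identifier in the files, NM_005524. The second of them spans 188 bases of the genome, 128 more than its length, so that its 60 bases are not contiguous there. Exon and UTR annotation of hg17 was not used here.

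The unit of signal is the brightness of a spot after the authors' background subtraction. Ratios were taken after each array had been divided by its 50th percentile, which was 48.9 for untreated and 50.0 for siRNA-treated cells. A probe was counted as measured where its spots were well above background on both arrays, and the dimmest such spots had signals of 14.9 (untreated) and 17.5 (siRNA-treated). A probe was called lower at a log2 ratio (siRNA-treated over untreated) of -1 or less and higher at 1 or more. Probes differ in how well they bind, so that the signals of different probes are not compared as levels of their genes, and signal served only to choose which probe of a gene to read and which gene of a role to name.

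On these arrays the targeted gene gave no check of the knockdown, because neither had the TACSTD1 probe well above background (signals of 15.6 and 12.0). The study itself reports reduced Ep-CAM at 48 h by quantitative PCR, western blotting and immunofluorescence. Of 10 markers listed for photoreceptor-like retinoblastoma and used to check the label, 9 had a probe and 5 were measured on both arrays. CRX (86.8 and 68.7) and OTX2 (70.4 and 52.0), which specify photoreceptors, were among these. On both arrays NRL (a rod factor), PDE6H and SYP stayed too dim to count as measured, and so did THRB after siRNA. Of 7 glia or progenitor markers with a probe 6 were measured, and so were all 3 fibroblast and all 3 blood markers. The check thus could not decide the label, because the lists for other cell types also had measured markers. The only marker called in any list was the blood gene HBB (331 and 1235), and the summed signal of the 3 blood markers was 900 and 1861, with CD14 (543 and 599) and the leukocyte gene PTPRC (26.0 and 27.1) not called. The part of blood markers in the values below was not tested.

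Of the 14 probes, 8 were measured on both arrays and stood for 6 genes. On neither array were the other 6 well above background, and NOTCH1, JAG1 and HEY1 had no measured probe. A single probe, of HES1, was called lower and 0 were called higher. Over all 29345 probes with a value for the call, 0.927% were called lower and 1.27% higher. The median log2 ratio of the 8 measured probes was -0.09, and it was -0.05 without the HES1 probe called lower, against a median of -0.03 and quartiles of -0.18 and 0.12 over all 26975 measured probes. The 7 measured probes not called ranged from -0.51 to 0.25.

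**Figure D1:**
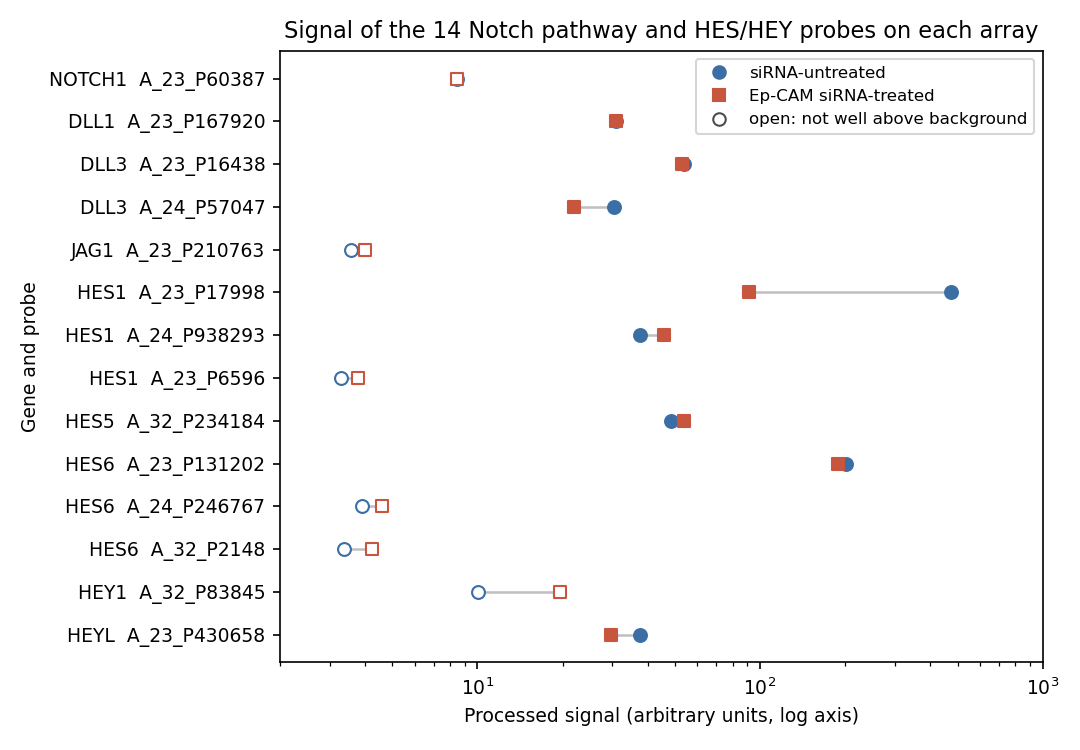
Processed signal (arbitrary units, log axis) of each of the 14 probes on the untreated array (circles) and the Ep-CAM siRNA-treated array (squares), with open symbols where the probe was not well above background. The line joins both arrays, the NOTCH1 value is the mean of its 9 spots not marked as outliers, and the longest line is that of HES1 A_23_P17998, from 475 to 91.5.

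The ligands DLL1 and DLL3 were measured at low signal and neither was called, whereas JAG1 was not measured. DLL1, a Delta ligand that activates Notch on adjacent cells, had a signal of 30.9 in untreated cells and of 30.8 after siRNA (A_23_P167920, chr6:170509274-170509333, minus strand). Its log2 ratio was -0.04, with a technical SD of 0.25, and the 76 measured spots around it had a median of -0.11. This SD was taken from repeated spots of probes at the same level and says nothing of the spread between cultures.

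DLL3 is a divergent Delta family member that does not activate Notch from outside the cell. The probe assigned to NM_016941 had 53.6 and 53.1, a log2 ratio of -0.05 (technical SD 0.19). The probe assigned to NM_203486, which starts 155 bases upstream of it, had 30.5 and 21.9, a log2 ratio of -0.51 (technical SD 0.25). The probes differed by 0.46, and neither was called. The second lay, like the DLL1 probe, in a corner of the array (rows 355 to 532, columns 43 to 85) that was set apart after changed probes had been seen to gather there, and the 61 measured spots around it had a median of -0.27. With the median of the surrounding spots subtracted its log2 ratio was -0.24.

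JAG1, a Jagged ligand, stood at background on both arrays (3.58 and 3.98, A_23_P210763, chr20:10567061-10567120, minus strand). The receptor NOTCH1 was printed in 10 spots (A_23_P60387, chr9:136665601-136665660, minus strand). The signal in untreated cells was 3.67 at the lowest, 7.30 at the median and 18.9 at the highest spot, and in siRNA-treated cells it was 4.00, 7.61 and 62.5. The spots of both arrays overlapped. The spot at 62.5 was marked as an outlier by the scanner software, and the next was at 16.9. On each array 1 spot was well above background, which in siRNA-treated cells was the outlier spot, and 0 spots were so on both. The log2 ratio of single NOTCH1 spots ran from -2.27 to 1.37 without the outlier spot, which had 2.20. The spot at -2.27 had a signal of 4.00 in siRNA-treated cells, with an error of 4.00 given by the scanner software. No change of NOTCH1 in either direction could thus be read at this signal.

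HES1, the repressor that maintains neural progenitors, had the only probe called. Its probe A_23_P17998 had a signal of 475 in untreated cells and of 91.5 after siRNA, 5.32-fold lower after scaling. The log2 ratio was -2.41, with a technical SD of 0.12 at this level and an error of 0.21 from the scanner software's own error model. The spot was neither saturated nor marked as an outlier, and its raw brightness before background subtraction was 628.5 and 182.5. Of the 26975 measured probes, 4 had a log2 ratio this low or lower, counting this one.

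The other HES1 probes were not called. A_24_P938293 had 37.6 and 45.8, a log2 ratio of 0.25 (technical SD 0.22), and A_23_P6596 stood at background on both (3.29 and 3.77). Along the plus strand the probe that was lower starts 2132 bases downstream of the start of A_24_P938293. Labeling used amplification from a T7 promoter, and whether the position of a probe on the transcript bears on the difference was not tested.

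**Figure D2:**
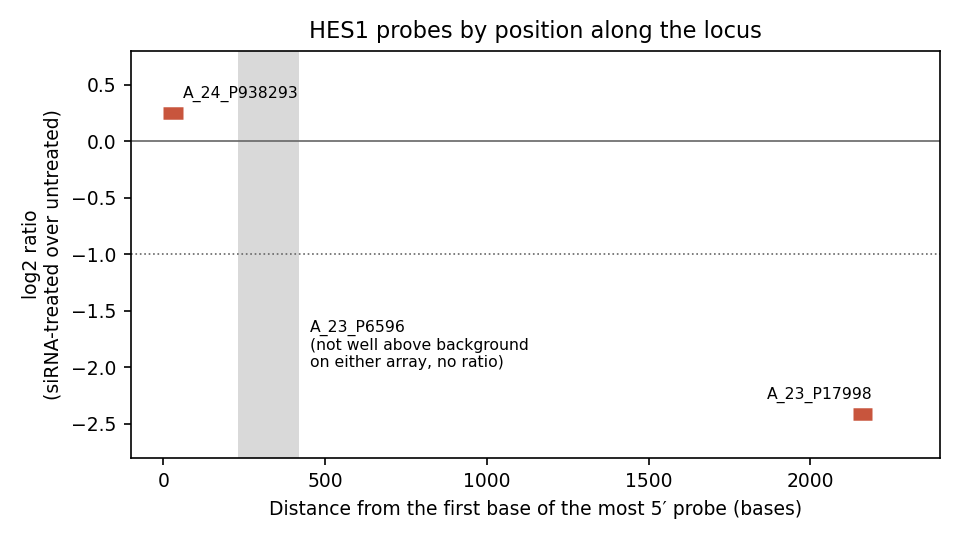
The log2 ratio (siRNA-treated over untreated) of the HES1 probes against their distance in bases from the first base of the most 5′ probe, with the length of each bar showing the stretch covered and a gray band for the probe without a ratio. The most 3′ probe stands at -2.41, below the dotted line at -1, and the most 5′ probe at 0.25.

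The gap between the measured HES1 probes was 2.67. HES1 was chosen with its ratios known, and a gene with so low a probe tends to have a wide gap. The place of this gap among other genes is thus a description. Among 3798 genes with at least 2 measured probes, the range between the probes of a gene had a median of 0.27 and a 95th percentile of 1.00. A range at least as wide as that of HES1 was seen in 10 genes (0.263%), counting HES1. These ranges were not matched for signal, and A_24_P938293 (37.6 in untreated cells) was far dimmer than A_23_P17998 (475). Of the 88 single-spot probes called lower whose gene had another measured probe, 9 had another probe called lower, and in 21 every other measured probe was above 0.

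The HES1 spot lay outside the corner of the array. The 80 measured spots within 5 rows and 5 columns of it had log2 ratios from -0.89 to 0.69 with a median of -0.03, and 0 of them were called in either direction.

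**Figure D3:**
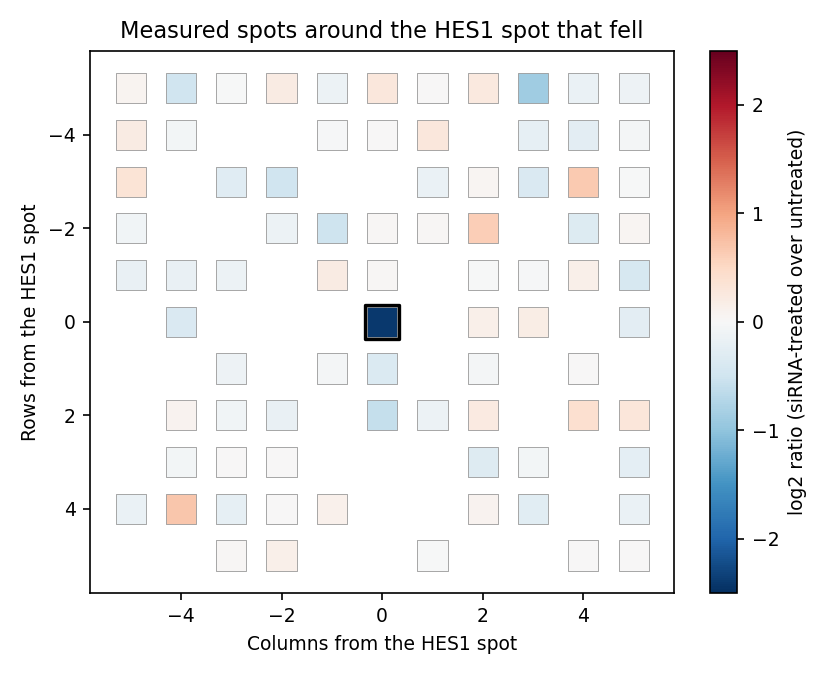
Measured spots within 5 rows and 5 columns of the HES1 A_23_P17998 spot, placed by their distance in rows and columns and colored by log2 ratio (siRNA-treated over untreated). The outlined HES1 spot is at -2.41 and the 80 around it lie between -0.89 and 0.69.

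Of the other HES and HEY genes, HES5, HES6 and HEYL were measured and none of them was called. HES5, a Notch effector of neural progenitors, had 48.3 and 53.9, a log2 ratio of 0.12 (technical SD 0.19). HES6 had 201 and 189 at the probe for NM_018645 (A_23_P131202, chr2:238930150-238930209, minus strand), a log2 ratio of -0.12 (technical SD 0.12). HEYL, a relative of HES1 that is also induced by Notch, had 37.5 and 29.6, a log2 ratio of -0.38 (technical SD 0.24). In the main setting HEYL was thus the only one of these genes whose ratio exceeded its technical SD. It stood within the 5th to 95th percentile of all measured probes (-0.57 to 0.44). Its error from the scanner software's error model was 0.35. Over the alternatives run its log2 ratio went from -0.38 to -0.16. It was smaller in size than the technical SD under normexp background correction (-0.18) and with raw intensities (-0.16).

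A further pair of probes labeled HES6 (A_24_P246767, with 3.90 and 4.60, and A_32_P2148, with 3.38 and 4.25) was not well above background. They are assigned to the clone BC059397, lie on the plus strand, opposite to the other HES6 probe, and the files' own annotation warns that this clone may be chimeric, so that they were not taken as readings of HES6. HEY1, a repressor of the HEY branch, had 10.0 and 19.6 (A_32_P83845), on neither array well above background, and no ratio is given.

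**Figure D4:**
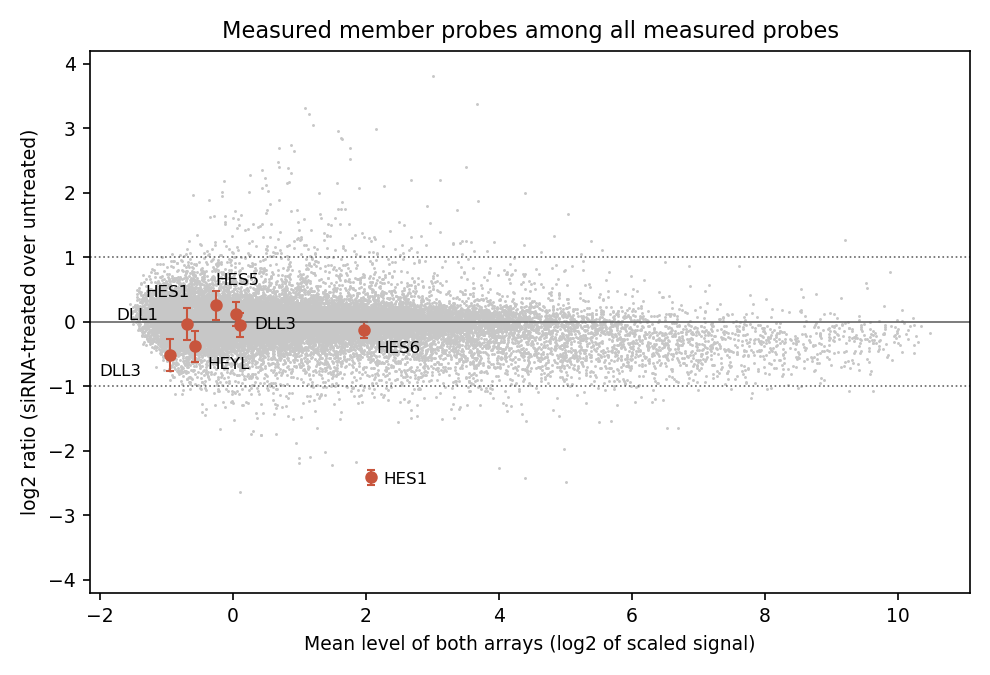
The log2 ratio (siRNA-treated over untreated) of the 26975 measured probes (gray) and of the 8 measured Notch and HES/HEY probes (colored, bars are the technical SD from repeated spots) against the mean level of both arrays (log2 of scaled signal). The dotted lines mark -1 and 1, and HES1 A_23_P17998 at -2.41 is the only colored point past them.

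Promoters of HES1 and HES5 are printed as examples of RBPJ targets among the measured genes, and that of HEYL, also measured, is not printed. The HES1 probes had log2 ratios of -2.41 and 0.25, and the HES5 probe 0.12. They are the 250 bases before the transcription start in RefSeq (GRCh38.p14), with TGGGAA, the core motif that RBPJ binds, in capitals on either strand (TTCCCA on the opposite one).
HES1, chr3:194135898-194136147, plus strand: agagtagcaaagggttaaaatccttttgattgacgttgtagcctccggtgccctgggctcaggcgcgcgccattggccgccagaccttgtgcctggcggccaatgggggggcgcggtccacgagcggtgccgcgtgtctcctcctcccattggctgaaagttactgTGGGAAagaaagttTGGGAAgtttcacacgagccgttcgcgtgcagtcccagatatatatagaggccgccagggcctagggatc
HES5, chr1:2530264-2530513, minus strand: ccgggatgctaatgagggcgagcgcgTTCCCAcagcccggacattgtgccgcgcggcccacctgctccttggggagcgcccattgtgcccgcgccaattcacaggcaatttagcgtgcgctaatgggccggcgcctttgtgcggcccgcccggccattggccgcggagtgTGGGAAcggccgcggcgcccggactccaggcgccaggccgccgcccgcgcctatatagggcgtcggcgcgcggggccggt
The motif began 84 and 70 bases upstream of the start in HES1, 224 and 80 bases upstream in HES5, and 178 and 99 bases upstream in HEYL. It was found in none of the HES6, NOTCH1 and JAG1 promoters, and 6 of the 9 genes had a promoter in the table. Over all 35116 promoters of the table, 20.8% held it at least once and 2.90% at 2 or more places. CACNAG, the N box that HES repressors bind, was found 3 times in the HES1 promoter, 165, 132 and 58 bases upstream, and in none of the other 5, while 32.0% of all promoters held it at least once and 6.32% at 2 or more places. These matches are descriptions of the sequence and were not measured as binding sites.

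The wider pathway was read from a list of 71 genes, each at the probe with the highest mean signal. A probe was present for 68, of which 56 were measured on both arrays, 2 on 1 array and 10 on neither. Called lower were 3 genes (HES1, DNER and ADAM10) and called higher was 1 (LFNG), beside 0.927% and 1.27% of all probes. Without the 9 genes above, 62 genes were left, with 50 measured, 2 called lower, 1 called higher and a median log2 ratio of 0.01.

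DNER, a noncanonical Notch ligand of neurons, went from 117 to 4.63, the signal in siRNA-treated cells being not well above background. In the main setting it was at least 6.86-fold lower, a bound of -2.78 as a log2 ratio. That bound was -1.08 under normexp background correction and -0.96, not called, with raw intensities. ADAM10, the protease that makes the first cut after ligand binding, had 343 and 173, a log2 ratio of -1.02 just past the threshold. Its call was lost with no scaling (-0.99), quantile normalization (-0.995), normexp background correction (-0.81), raw intensities (-0.76) and subtraction of neighboring spots (-0.94). LFNG, the Fringe enzyme that adds sugar to Notch and shifts its choice of ligand, had 1275 and 2703, a log2 ratio of 1.05. The other LFNG probe had 211 and 479, a log2 ratio of 1.15. Both LFNG probes and the DNER probe lay in the corner of the array, while ADAM10 did not, and with the corner left out 2 genes were called lower and 0 higher.

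No other gene of the list was called. Among ligands, the brightest measured was DLK2 (124 and 141, log2 ratio 0.16), and the 6 measured ligands ran from -0.05 to 0.31. Among receptors, NOTCH2 (194 and 200, 0.01) was the brightest and the 3 measured ran from 0.01 to 0.19. The other measured NOTCH4 probe had a log2 ratio of 0.54, and neither it nor the brightest was called.

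The 9 proteases had a median log2 ratio of -0.34 and ran from -1.02 to 0.20, without a comparison with other probes of like signal. PSENEN, a subunit of gamma-secretase, was the brightest (5835 and 4501, -0.41). FURIN, which cuts the Notch precursor, did not reach the threshold (51.1 and 28.8, -0.86), and its probe lay in the corner. Of the enzymes that promote the uptake of ligand from the surface, MIB2 was the brightest (693 and 1126, 0.67, in the corner), and the 3 measured ran from 0.16 to 0.67. The other measured probes of MIB1 (-0.20 to -0.03) and NEURL (-0.25) were below 0, and none was called.

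In the nucleus, 3 of 7 genes of the activating complex were measured, from -0.26 to -0.14, with the coactivator CREBBP (1114 and 955, -0.26) the brightest. RBPJ, the DNA-binding partner of Notch, had 186 and 172, a log2 ratio of -0.14, and its other measured probe had 0.49. The 9 corepressors had a median of -0.16, with CTBP1 the brightest (8006 and 5834, -0.49, in the corner). The other measured CTBP1 probes had log2 ratios of -0.25 and -0.06. The 6 measured inhibitors had a median of 0.14, with the ubiquitin ligase subunit FBXW7 the brightest (3141 and 4010, 0.32). No role had a median past the threshold, and whether the role medians differed from those of other probes of like signal was not tested.

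Of 10 HES and HEY genes in the list, 9 had a probe and 8 were measured. HES7, the repressor of the segmentation clock, was the brightest (50248 and 48412, -0.09), HES4 had 591 and 575 (-0.07), and without HES1 the measured genes ran from -0.38 (HEYL) to 0.12 (HES5). Among proneural factors, which HES repressors hold back, 4 of 7 were measured and ran from 0.03 to 0.24, with NEUROG1 the brightest (793 and 831, 0.03). No proneural factor was called.

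**Figure D5:**
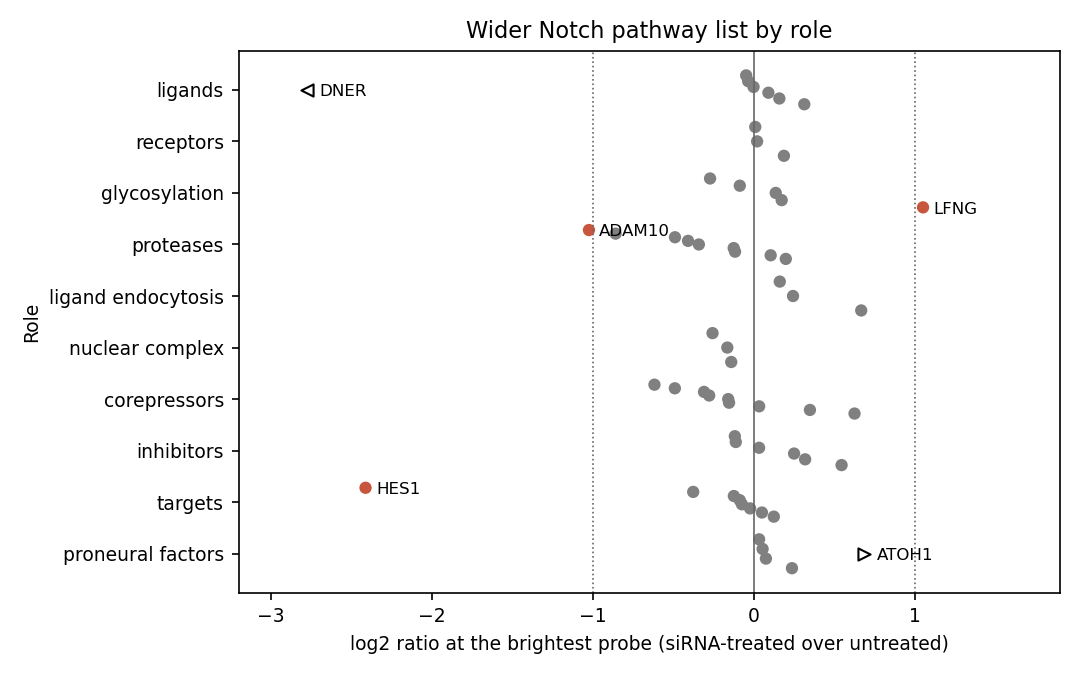
The log2 ratio (siRNA-treated over untreated) at the brightest probe of each measured gene of the wider list, in a row for each role, with colored points past the dotted lines at -1 and 1 and open triangles for bounds where a probe was measured on 1 array only. HES1 (-2.41), ADAM10 (-1.02) and LFNG (1.05) are the measured genes past the lines, and DNER is shown at its bound.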

How the data were processed

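The deposited scanner files hold spot intensity values made by the authors with Agilent Feature Extraction (version 9.5.3.1 per the file headers), background-subtracted and not scaled between arrays. Flag columns mark outlier, saturated and well above background spots. The authors' series table holds the raw median intensity of each spot with its background included, and served as an alternative (raw intensities). Depth is not defined for arrays, and their number limits the precision.

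Control spots and outlier spots (117 and 131) were dropped. Signals were scaled to the 50th percentile of their array, floored at 0.01, put on the log2 scale and averaged over the spots of each probe. To count as well above background a probe needed the flag on at least 50% of its spots. The technical SD is that of the log2 ratio over repeated spots (193 measured probes, median 0.14). Python 3.11.15 and limma 3.58.1 (normexp) were used.

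The genes, the lists and the corner were chosen with earlier results of these data known. Named were every probe of the 9 genes, every called gene of the wider list and the brightest measured gene in each role. RBPJ, FURIN, HES4 and the markers were named after their values were seen. Of the 14 probe accessions, 12 were found in RefSeq.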

Additional observations from a re-analysis of the deposited data

How the results depend on the processing

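The number of Notch and HES/HEY probes called (1 lower, 0 higher) was the same under each alternative run: other scalings, quantile normalization, normexp background correction, the raw intensities of the authors' series table, a floor of 5, subtraction of neighboring spots, leaving out the corner, the thresholds of the series' processing text, either filter on dim probes, and outlier spots kept (added after seeing the data). The HES1 log2 ratio ran from -2.41 to -1.83, with -1.87 under normexp and -1.83 with raw intensities, which keep the background, and DLL3 A_24_P57047 ran from -0.51 to -0.15. Of 70 alternatives for single probes, 4 moved the value by at least the technical SD, and none changed its call. With no filter on dim probes the median over the probes was 0.077. In the wider list, the 3 genes lower became 2 with quantile normalization, no scaling, normexp or neighboring spots subtracted (ADAM10 lost), without the corner or where both arrays had to be above background (without DNER), 2 with the mean over a gene's probes and 1 with raw intensities, and higher were 0 without the corner, 4 at a ratio above 1.5 or below 0.55 and 2 with no filter. Over all probes, lower and higher were 272 and 372 in the main setting, 76 and 128 under normexp, 80 and 89 with raw intensities, 155 and 109 without the corner, 492 and 1180 at the other thresholds, 216 and 214 where both arrays had to be above background, and 1016 and 1049 with no filter. The causes were not tested. No paired analysis was possible because each group had 1 array.

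The dimmest spots well above background had signals of 14.9 (untreated) and 17.5 (siRNA-treated). NOTCH1, JAG1 and HEY1 had no ratio, and a change in them that stayed at background was not detectable here.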
